A study of Homo sapiens with 5 samples.

Results

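Binding of the stress-induced transcription factor ATF3 and of the tumor suppressor p53 was examined at 8 immediate early genes, EGR1, EGR2, EGR3, IER2, IER3, IER5, SRF and ZFP36, out of 20136 protein-coding genes. Each gene was searched from 20 kb upstream of its transcription start site (TSS) to its end, and a peak was counted when its centre lay in that region. The 5 ChIP-seq libraries, 1 for each condition and with no replicates, came from HCT116, a cell line of a human colorectal carcinoma. ATF3 was precipitated from ATF3-WT cells that received DMSO, the solvent (ATF3-Ctrl) and from ATF3-WT cells given 1.5 µM of camptothecin for 4 h (ATF3-CPT). The third ATF3 library (ATF3-KO) was from knockout cells in DMSO. No knockout library was given camptothecin, so ATF3-CPT and ATF3-KO differ in both genotype and treatment. Camptothecin (CPT) is a topoisomerase I poison that damages DNA. p53 was precipitated from p53-WT cells given the same CPT treatment (p53-CPT) and from p53-KO cells that received DMSO, so genotype and treatment cannot be told apart between the p53 libraries. The ATF3-KO cells were made by targeting both alleles of exon 3 with recombinant AAV and selecting single clones, and they stand for 1 line. Proteins were crosslinked with 1 mM of DSG for 45 min and 1% formaldehyde for 10 min, DNA was sheared to about 500 bp, and 2 µg of antibody was used.

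Immediate early genes are transcribed within minutes of a growth, stress or damage signal, without new protein synthesis. EGR1, EGR2 and EGR3 encode zinc finger transcription factors that bind GC-rich sites. SRF is a transcription factor that binds the CArG box and, with its partners, switches on many immediate early genes. IER2, IER3 and IER5 encode regulators of growth, survival and the stress response, and ZFP36 (tristetraprolin) binds AU-rich elements of mRNAs and promotes their decay.

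All 8 genes held at least 1 ATF3 peak after CPT, and 5 of them (EGR1, EGR3, IER2, SRF and ZFP36) held one before it. The 8 regions held 31 of the 70702 ATF3-CPT peaks, 13 of the 33966 ATF3-Ctrl peaks, none of the 2231 ATF3-KO peaks, none of the 9211 p53-CPT peaks and none of the 7879 p53-KO peaks. A gene with a peak was common in the ATF3 lists: 81% of all protein-coding genes had one in ATF3-CPT and 65.2% had one in ATF3-Ctrl, and among the 4585 genes with regions as long as those of the 8, the shares were 67.5% and 51%. EGR2, IER3 and IER5 had a peak after CPT and none before it, as did 16.8% of all genes. The corresponding shares of all genes with a peak were 11.4% in ATF3-KO, 21.8% in p53-CPT and 17.4% in p53-KO, and within the length range 10.9%, 9.53% and 6.52%. With so few genes, 0 of 8 in these lists is read only against those shares.

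The peaks differed widely in size and in sequence. A search of the deposited peak windows covered the AP-1 core (TGACTCA or TGAGTCA, the same site on either strand), the palindromic ATF/CRE core TGACGTCA, the CArG box bound by SRF, and the p53 motif with at most 3 mismatches. The sequences below are from 9 of the 31 ATF3-CPT peaks, on the + strand of GRCh37 (the build of hg19), with the matched cores in capitals. They show the strongest sites of the ZFP36 and IER3 regions, the ATF/CRE site near ZFP36, an intronic SRF site, both EGR2 sites, and IER2 and IER5 sites with a CArG box. Those beyond the highest-scoring peak of a gene were picked after their values had been seen.
ZFP36, 2870 bp upstream (chr19:39894555-39894679): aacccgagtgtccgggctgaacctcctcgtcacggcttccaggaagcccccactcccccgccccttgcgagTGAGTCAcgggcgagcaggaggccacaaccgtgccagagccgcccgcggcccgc
ZFP36, 3222 bp upstream (chr19:39894203-39894327): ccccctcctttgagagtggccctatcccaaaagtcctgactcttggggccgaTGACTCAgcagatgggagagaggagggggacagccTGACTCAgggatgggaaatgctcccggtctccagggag
ZFP36, 16114 bp upstream (chr19:39881311-39881435): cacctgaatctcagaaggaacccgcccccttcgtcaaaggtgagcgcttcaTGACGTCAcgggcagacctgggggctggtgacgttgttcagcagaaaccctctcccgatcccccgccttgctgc
SRF, 3551 bp downstream (chr6:43142496-43142620): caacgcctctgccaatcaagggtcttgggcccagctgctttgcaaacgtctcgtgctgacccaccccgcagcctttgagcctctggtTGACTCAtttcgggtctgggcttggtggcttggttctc
EGR2, 1236 bp downstream (chr10:64577629-64577753): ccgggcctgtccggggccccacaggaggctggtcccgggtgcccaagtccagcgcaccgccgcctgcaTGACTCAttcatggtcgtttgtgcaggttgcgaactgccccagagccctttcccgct
EGR2, 2721 bp downstream (chr10:64576144-64576268): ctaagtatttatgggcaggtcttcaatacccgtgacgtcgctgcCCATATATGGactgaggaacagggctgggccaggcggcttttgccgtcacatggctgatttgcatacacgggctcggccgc
IER2, 1497 bp downstream (chr19:13262660-13262784): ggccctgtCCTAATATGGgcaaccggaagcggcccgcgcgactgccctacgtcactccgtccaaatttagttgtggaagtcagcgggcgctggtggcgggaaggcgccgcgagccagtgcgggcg
IER3, 5230 bp upstream (chr6:30717493-30717617): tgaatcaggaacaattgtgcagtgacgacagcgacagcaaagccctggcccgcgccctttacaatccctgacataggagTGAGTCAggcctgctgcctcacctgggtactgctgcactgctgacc
IER5, 10927 bp upstream (chr1:181046847-181046971): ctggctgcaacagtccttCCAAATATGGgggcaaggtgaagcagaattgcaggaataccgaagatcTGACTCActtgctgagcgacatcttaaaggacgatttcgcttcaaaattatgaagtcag

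**Figure D1:**
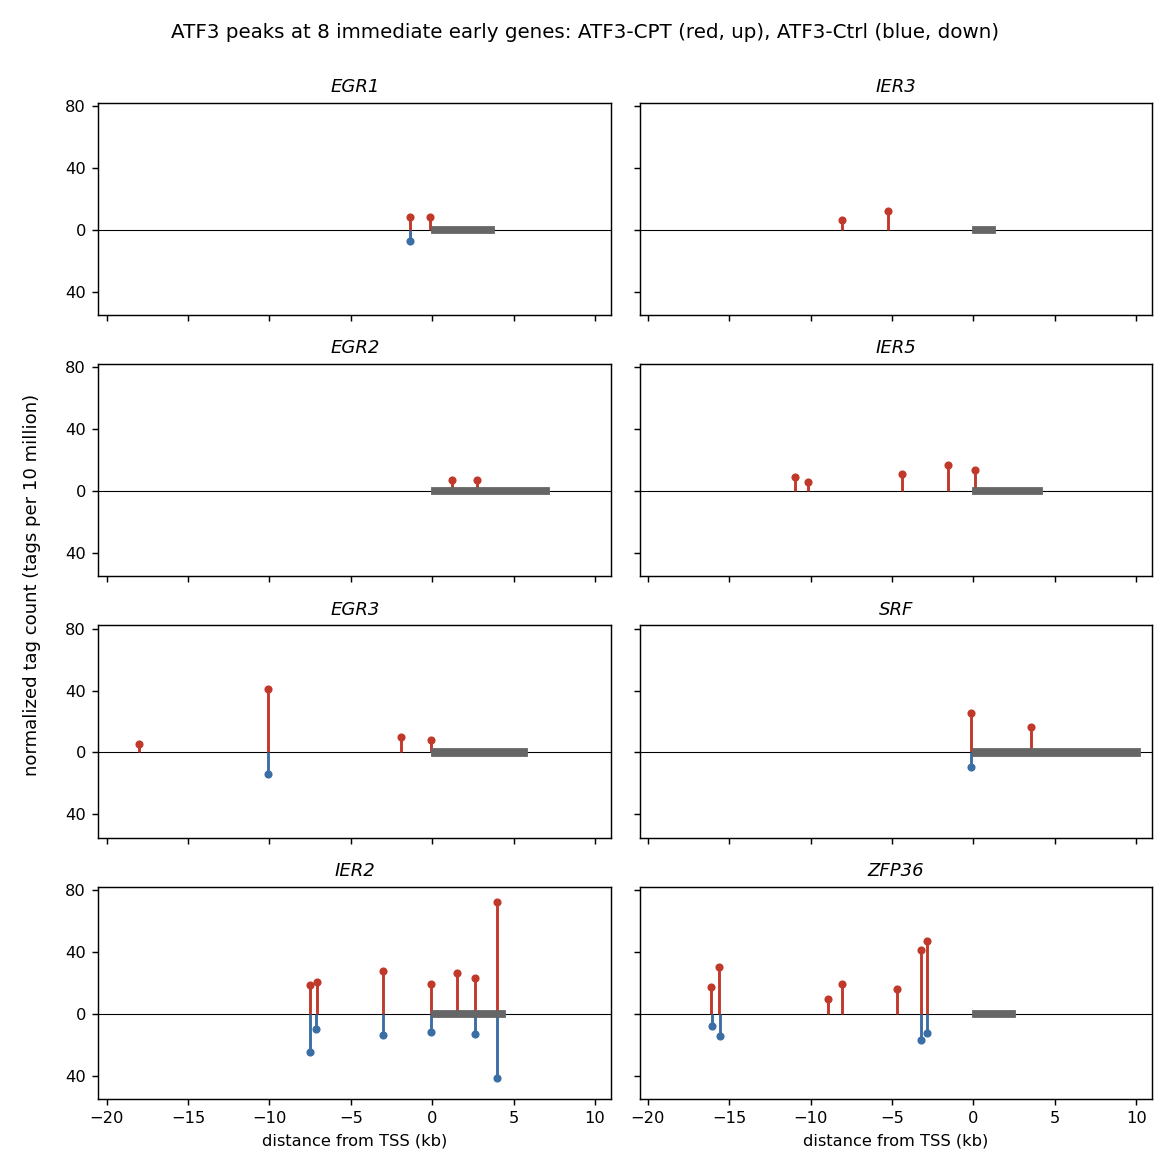
Normalized tag count (tags per 10000000 tags of the library) of every ATF3 peak against its distance from the TSS in kb for the 8 genes, with ATF3-CPT drawn upwards in red, ATF3-Ctrl downwards in blue and the gene as a grey bar. IER2 and ZFP36 carry 7 red peaks each, whereas EGR2, IER3 and IER5 have no blue peak.

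ZFP36 (ENSG00000128016, chr19:39897487-39900052, + strand) had 7 ATF3-CPT peaks and 4 ATF3-Ctrl peaks, all upstream of its TSS. The strongest pair lay 3222 and 2870 bp upstream, in an exon of an unnamed long non-coding RNA. The peak at 2870 bp had a normalized tag count (tags per 10000000 tags of its library) of 47.2 (95% exact Poisson interval 37.02 to 59.4) after CPT and 12.4 (7.06 to 20.1) before it. The peak at 3222 bp had 41.4 (31.9 to 52.9) after CPT and 17 (10.6 to 25.7) before it. As the sequences show, the first holds 1 AP-1 core and the second holds 2. Intervals here and elsewhere cover counting error only, and they compare libraries rather than conditions.

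The other ZFP36 peaks lay close to or inside neighboring genes. The peak 16114 bp upstream had a normalized tag count of 17.5 after CPT and 7.7 before, lay in an intron of PAF1, 421 bp from the PAF1 TSS, and holds the ATF/CRE core shown. The peak 15591 bp upstream (29.8 after CPT, 14.7 before) was 47 bp from the TSS of MED29, a Mediator subunit gene. These sites could belong to the promoters of those genes as well as to ZFP36. After CPT, further peaks of 9.7 and 19.4 lay in the 3′UTR of MED29, 8950 and 8063 bp upstream of ZFP36, and 1 of 16.2 lay between genes at 4704 bp, and none of these 3 had an ATF3-Ctrl peak.

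IER2 (ENSG00000160888, chr19:13261225-13265725, + strand) held the largest peak within the 8 regions. In its 3′UTR, 3962 bp downstream of the TSS, the normalized tag count was 71.8 (59.1 to 86.5) after CPT and 41.7 (31.3 to 54.4) before it, and the findPeaks score was 81 and 45. This score is the peak caller's own whole number and is not adjusted for depth. The 71.8 was above 97.3% of the ATF3-CPT list. Another peak lay in the 5′UTR, 2618 bp downstream of the 5′ end of the gene record (23.3 after CPT, 13.1 before), and contains an ATF/CRE core. At the TSS itself a peak of 19.4 after CPT and 11.6 before lay 51 bp upstream of IER2 and 23 bp from the TSS of the divergent gene STX10, so it cannot be assigned to either. The IER2 peak without an ATF3-Ctrl counterpart, 26.5 (19.0 to 36.0) in an intron 1497 bp downstream, is the one with a CArG box near its left edge in the sequence above.

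Upstream of IER2, 3 peaks lay in repeated sequence. In those 7476, 7100 and 3003 bp upstream of the TSS, only 42.7%, 62.5% and 42.7% of the 30-base words occurred once in the reference genome, and single words occurred up to 61873 times. Their normalized tag counts after CPT were 18.8, 20.7 and 27.2, against 24.7, 10 and 13.9 before. Reads from other copies could fall in such windows, and how the aligner placed them is not given in the sources used here, so these 3 peaks are uncertain. In the other 28 ATF3-CPT peaks every 30-base word was unique. Without the 3 peaks, IER2 had 4 ATF3-CPT peaks instead of 7.

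The EGR genes differed from each other. EGR3 (ENSG00000179388, chr8:22545172-22550993, − strand) had 4 ATF3-CPT peaks, the strongest 10111 bp upstream in an exon of an unnamed long non-coding RNA. That peak had a normalized tag count of 40.8 (31.3 to 52.1) after CPT and 13.9 (8.24 to 21.97) before it, and holds an AP-1 core. The remaining EGR3 peaks were low, with 5.2 at 18011 bp, 9.7 at 1938 bp and 7.8 at 85 bp upstream, and had no ATF3-Ctrl peak. The one 85 bp upstream holds a CArG box.

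EGR1 (ENSG00000120738, chr5:137801168-137804992, + strand), the best studied of the family, had a pair of small promoter peaks after CPT, each with a normalized tag count of 8.4 (4.48 to 14.4), 1342 and 167 bp upstream. Only the farther one had an ATF3-Ctrl peak, of 7 (3.18 to 13.2), at the threshold of that list. Neither deposited window holds any of the 4 motifs searched, but 200 bp around the centre of the nearer peak hold 2 CArG boxes. EGR2 (ENSG00000122877, chr10:64571756-64578927, − strand) had 2 peaks of 7.1 (3.55 to 12.7), both in introns of the gene record and both without an ATF3-Ctrl peak. The one 2721 bp downstream of the 5′ end of that record lies 80 bp upstream of the canonical transcript and holds a CArG box. The other, 1236 bp downstream, holds an AP-1 core.

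SRF (ENSG00000112658, chr6:43139007-43149244, + strand) had a promoter peak 151 bp upstream with a normalized tag count of 25.2 (17.9 to 34.5) after CPT and 9.3 (4.79 to 16.2) before, and none of the searched motifs in it. A second peak after CPT, 16.2 (10.5 to 23.9) in an intron 3551 bp downstream, had no ATF3-Ctrl counterpart and holds the AP-1 core shown above.

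IER5 (ENSG00000162783, chr1:181057836-181062036, + strand) had 5 ATF3-CPT peaks and no ATF3-Ctrl peak in its region. They were 9.1, 5.8, 11, 16.8 and 13.6 in normalized tag count, at 10927, 10153, 4353 and 1533 bp upstream and 95 bp downstream of the TSS, the last in the 5′UTR. The farthest holds both an AP-1 core and a CArG box, and the other 4 hold none of the motifs. IER3 (ENSG00000137331, chr6:30710976-30712325, − strand) had 2 ATF3-CPT peaks, 6.5 at 8052 bp and 12.3 (7.40 to 19.2) at 5230 bp upstream, both in an intron of the long non-coding RNA HCG20 and each with an AP-1 core. IER3 lies in the part of chromosome 6 for which hg19 holds 7 alternative haplotype sequences, and 185 ATF3-CPT and 58 ATF3-Ctrl peaks were on those. Within 2 Mb on either side of IER3 there were 7.5 ATF3-CPT peaks per Mb, against 23.9 on the rest of chromosome 6, and for ATF3-Ctrl 1.25 against 10.97. Low values and the missing ATF3-Ctrl peak at IER3 are therefore uncertain, and the part of the haplotype copies in them was not tested.

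Over all 8 genes the ATF3-CPT peaks had a median normalized tag count of 16.2 (5.2 to 71.8), against 11 in the whole list, and the ATF3-Ctrl peaks 13.1 (7 to 41.7), against 10. Of the ATF3-CPT peaks, 10 of 31 (32.3%) lay within 2 kb of the TSS of the gene, where 16.8% of all ATF3-CPT peaks lay within 2 kb of some protein-coding TSS. For ATF3-Ctrl this was 3 of 13 (23.1%), against 21.5%. These measures differ, since the count at the 8 genes takes only the TSS of the gene itself. It leaves out the ZFP36 sites next to the TSSs of PAF1 and MED29 in both libraries, which the share over all peaks would include. The search regions themselves were set around a TSS, which favors a high share. The centres of 17 of the 31 lay in the body of another annotated gene, long non-coding RNAs included. The share over all ATF3-CPT peaks was not computed, so this count is only a description.

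The 8 genes held 2 to 7 ATF3-CPT peaks each, with a median of 3. Genes with regions of similar length had a median of 1. None of the 8 had 0 or 1 peak, the numbers held by 1491 and 1068 of the genes of similar length. IER2 and ZFP36, with 7 each, were matched or passed by 1.50% of those 4585 genes. Without its repeat-bearing peaks IER2 had 4, a number reached by 13.6%, but peaks in repeated sequence were not left out for those genes. For IER5, with 5, this share was 6.89%, and for EGR3, with 4, it was also 13.6%. EGR1, EGR2, IER3 and SRF, with 2 each, were ordinary, since 44.2% of the genes had as many or more.

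**Figure D2:**
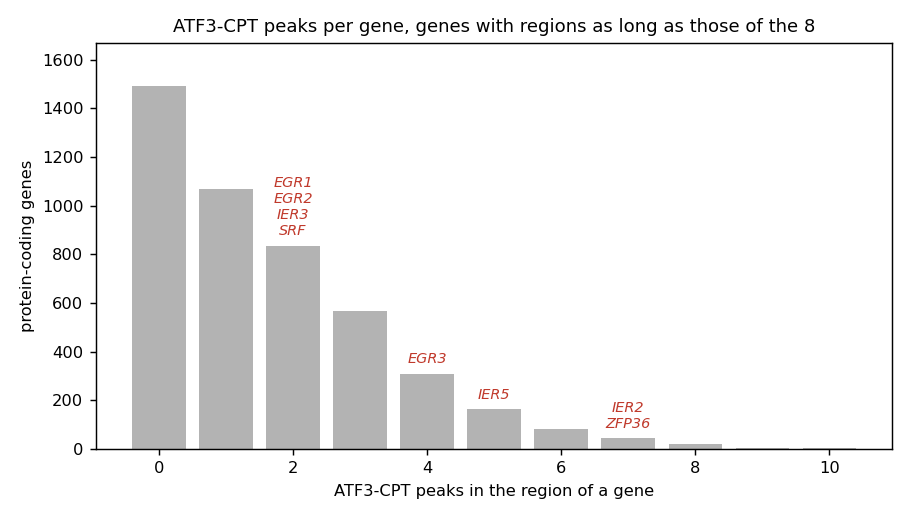
Number of protein-coding genes (vertical axis) by the number of ATF3-CPT peaks in their region (horizontal axis), for the 4585 genes with regions as long as those of the 8 genes, which are named above their bars. IER2 and ZFP36 stand in the bar at 7 peaks, which holds 44 genes, and 1491 genes had no peak. Without the 3 peaks in repeated sequence IER2 would stand in the bar at 4 peaks, which holds 309 genes. Peaks in repeated sequence were not left out for the genes in the bars.

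All 13 ATF3-Ctrl peaks shared bases with an ATF3-CPT peak, where 79.8% of the whole ATF3-Ctrl list did. The other 18 ATF3-CPT peaks had no ATF3-Ctrl counterpart, as was so for 61.7% of the ATF3-CPT list. Peaks listed in both had a median normalized tag count of 25.2 (8.4 to 71.8) after CPT, and those listed only after CPT 9.7 (5.2 to 26.5), so the ranges overlapped. Of the 18, 15 had a value in ATF3-CPT at or over the ATF3-Ctrl threshold of 9 tags (a normalized tag count of 6.95). The other 3 lay below it. Such a threshold is not a strict floor of the deposited values, since ATF3-CPT, also with a threshold of 9 tags, listed the EGR3 peak of 5.2 with 8 tags. A peak missing from ATF3-Ctrl did not pass the threshold or the local filters of the peak caller, and is not shown to be absent.

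At 12 of the 13 shared sites the normalized tag count was higher in ATF3-CPT, as it was at 80.4% of all 27104 shared sites. The ratio of ATF3-CPT to ATF3-Ctrl was largest at ZFP36, 2870 bp upstream (3.82, 95% conditional exact interval 2.20 to 7.04). It was 2.93 (1.71 to 5.26) at the distal EGR3 site, 2.72 (1.40 to 5.71) at the SRF promoter and 2.44 (1.48 to 4.15) at ZFP36 3222 bp upstream. These 4 sites lay in the search regions of ZFP36, EGR3 and SRF, and whether they act on those genes was not tested. The ratio was 2.26 (1.06 to 5.24) and 2.03 (1.17 to 3.67) at the ZFP36 sites next to PAF1 and MED29, and 1.72 (1.23 to 2.43) at the largest site of the 8 regions, in the 3′UTR of IER2.

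Among the remaining shared sites, those at the IER2 TSS (1.68, 0.874 to 3.35), in the IER2 5′UTR (1.77, 0.971 to 3.37) and at EGR1 (1.21, 0.478 to 3.21) had intervals that held 1. The repeat-bearing IER2 sites gave 0.759 (0.443 to 1.30), 2.06 (1.05 to 4.28) and 1.95 (1.10 to 3.61), the first being the only site that was lower after CPT. In all, 7 of 13 sites were at least 2-fold higher, against 43.6% of all shared sites, and 9 intervals lay wholly above 1, against 47.9%. No interval lay wholly below 1, against 3.38%, and 0 sites were at least 2-fold lower, against 2.37%. Without the repeat-bearing sites, 10 of 10 were higher, 6 at least 2-fold, and 7 intervals lay above 1.

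The direction of these ratios depended on the scale. ATF3-CPT had 12.76% of its tags in peaks and ATF3-Ctrl 5.6%, and the median ratio over all shared sites was 1.79 (a log2 difference of 0.84), against 2.03 at the 8 genes. Relative to that median, 8 of the 13 sites were higher and 5 were not. Per tag in peaks, only 4 of 13 were higher, namely the distal EGR3 site (1.29), the SRF promoter (1.19) and the close pair at ZFP36 (1.07 and 1.68), and the median was 0.890. Which scale reflects the amount of bound ATF3 cannot be decided from 1 library per condition.

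**Figure D3:**
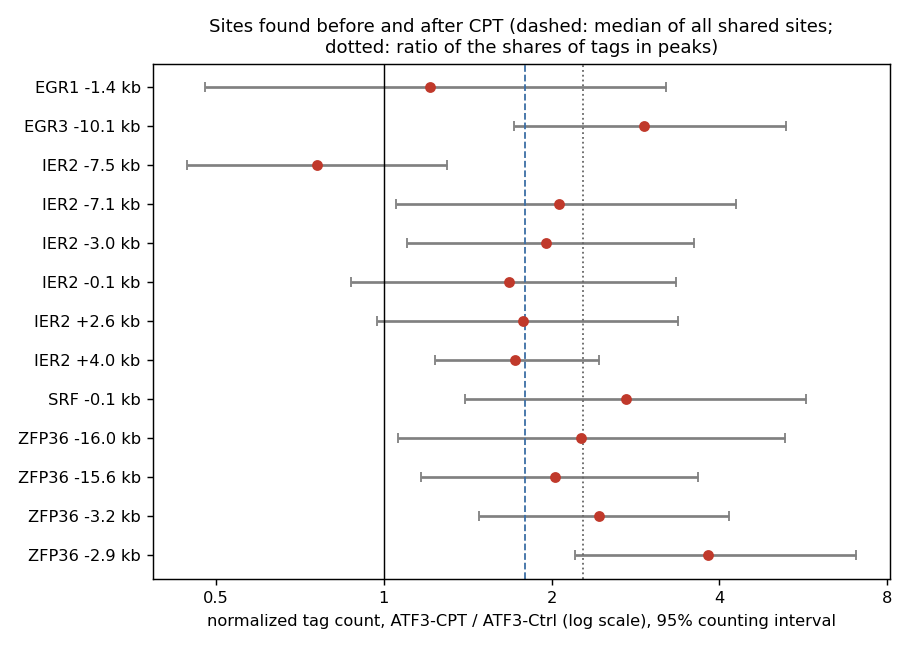
Ratio of the normalized tag counts of ATF3-CPT and ATF3-Ctrl (horizontal log axis) at the 13 sites found in both lists, with 95% conditional exact intervals. The solid line marks 1, the dashed line the median of all shared sites (1.79) and the dotted line the ratio of the shares of tags in peaks (2.28); the interval of ZFP36 at 2.9 kb upstream (2.20 to 7.04) starts above the dashed line.

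The CArG box was found in 5 of the 31 ATF3-CPT peaks (16.1%), against 0.572% of all ATF3-CPT peaks on the main chromosomes. These were at EGR2, EGR3, IER2 (1497 and 7100 bp from the TSS) and IER5, and without the repeat-bearing peaks 4 of 28 (14.3%) held one. CArG boxes are a textbook feature of SRF-driven immediate early promoters, and the genes were chosen as members of that class. The AP-1 core was in 11 of 31 (35.5%), against 40.6%, and the ATF/CRE core in 2 (6.45%), against 1.41%. Either of these cores, to which ATF3 dimers are known to bind, was in 13 (41.9%), against 41.9% of all peaks. Within 200 bp around the centre, 6 of 31 peaks (19.4%, against 1.03%) held a CArG box, the EGR1 promoter peak being the added one. With 1 mismatch allowed, the CArG box was in 8 of 31 (25.8%), against 8.22%.

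Partial p53 motifs were found in 2 of the 31 peaks (6.45%, against 2.49%), at IER2 7100 bp and IER3 8052 bp upstream. Each had 3 mismatches, neither had a p53-CPT peak, and the one at IER2 overlaps the CArG box and lies in repeated sequence. With at most 2 mismatches no peak at the 8 genes held the motif. The peaks at the 8 genes were richer in G and C (median 57.6%) than the whole list (49.6%), and the values ran down to 29.6% in the IER5 peak 1533 bp upstream.

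**Figure D4:**
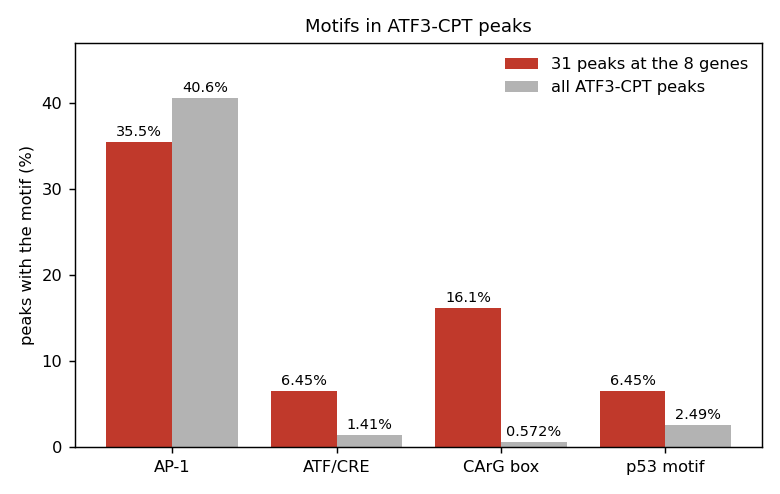
Share in percent of ATF3-CPT peaks with each motif, for the 31 peaks at the 8 genes (red) and for all ATF3-CPT peaks (grey). The CArG box stands at 16.1% against 0.572%, whereas the AP-1 core stands at 35.5% against 40.6%.

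No p53 peak lay in any of the 8 regions, and the nearest p53-CPT peak was a median of 67.6 kb from the TSS, against 101 kb over all genes. With p53-CPT peaks also listed in p53-KO left out, the order turned, with 333 kb against 224 kb. Among all p53-CPT peaks, the nearest was 275 kb away for EGR1, 68.0 kb for EGR2, 58.1 kb for EGR3 and 37.2 kb for IER2. It was 584 kb away for IER3, 11.1 kb for IER5, 67.2 kb for SRF and 100.1 kb for ZFP36. At EGR1, EGR2, EGR3, IER2 and SRF that nearest peak shared bases with a p53-KO peak, so it was also found in cells without p53, as were 60.9% of all p53-CPT peaks. The strongest of these, near EGR3, had 183 (139 to 237) in p53-CPT and 257 (191 to 338) in p53-KO. The IER3 distance is uncertain too, since 53 p53-CPT peaks were on the haplotype sequences and the p53-CPT list held 1.5 peaks per Mb around IER3 against 2.72 on the rest of chromosome 6. For IER3 and ZFP36 the nearest p53-CPT peaks had 37.9 and 18.9, against a median of 41 in the p53-CPT list. Neither shared bases with an ATF3 peak. Of the 8 genes, IER5 alone had a nearest p53-CPT peak that overlapped an ATF3-CPT peak, as 10.5% of all p53-CPT peaks did.

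Depth limited this comparison. The p53 libraries held 3169743 and 1984941 tags, and the ATF3 libraries 12820520 to 15457013. The p53-CPT threshold was 7 tags, a normalized tag count of 22.1 in a window of 318 bp. It was not a strict floor, since the nearest p53-CPT peaks of SRF and ZFP36 had 18.9. In the narrower windows of ATF3-CPT, 22 of the 31 ATF3-CPT peaks were below 22.1. Smaller p53 signals at the 8 genes could have been missed at this depth. The p53 library did list known p53 targets, since CDKN1A, MDM2, BBC3, GADD45A and BAX all had a p53-CPT peak in the same kind of region (126 to 905 for the highest) and none a p53-KO peak. The ATF3-KO list, with 0.56% of its tags in peaks, came no nearer than 29.2 kb to any of the 8 TSSs. Of the 31 ATF3-CPT peaks, 8 were below its threshold of 8.58, though that list held peaks of 7.8.

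Downstream of IER5, beyond the region searched, 2 sites were listed for both factors, and they were singled out after their values had been seen. The nearer one, between genes and 11.1 kb downstream of the TSS, had a normalized tag count of 31.5 (15.1 to 58.0) and a score of 12 in p53-CPT (chr1:181068780-181069098). In ATF3-CPT it had 8.4 (4.48 to 14.4) and a score of 14, and the centres lay 57 bp apart. These values stood for 10 tags in p53-CPT and 13 in ATF3-CPT, above 30.9% and 33.4% of their lists. Depth and window width differ between the libraries, so the sizes of the p53 and ATF3 peaks cannot be compared directly. No ATF3-Ctrl, ATF3-KO or p53-KO peak was listed there. It holds a p53 motif with 2 mismatches and no AP-1 or ATF/CRE core.

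The farther site lay 23.9 kb downstream of the TSS. ATF3-CPT reached 103.5 (88.1 to 121) with a score of 114, above 99.01% of its list, ATF3-Ctrl had 46.3, and the ratio was 2.23 (1.65 to 3.06). p53-CPT had 18.9 (6.95 to 41.2) there with a score of 7, the lowest in its list (chr1:181081611-181081929), and the centres lay 20 bp apart. It holds an AP-1 core and no p53 motif. The ATF3-CPT windows of both sites are printed for the contrast in their cores, the p53 motif being in capitals in the first and the AP-1 core in the second.
IER5, 11046 bp downstream (chr1:181068820-181068944): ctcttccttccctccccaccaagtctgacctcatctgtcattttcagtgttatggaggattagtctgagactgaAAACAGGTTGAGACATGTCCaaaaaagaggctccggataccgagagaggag
IER5, 23954 bp downstream (chr1:181081728-181081852): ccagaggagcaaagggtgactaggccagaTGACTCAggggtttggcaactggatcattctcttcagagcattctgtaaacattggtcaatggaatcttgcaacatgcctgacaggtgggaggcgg

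**Figure D5:**
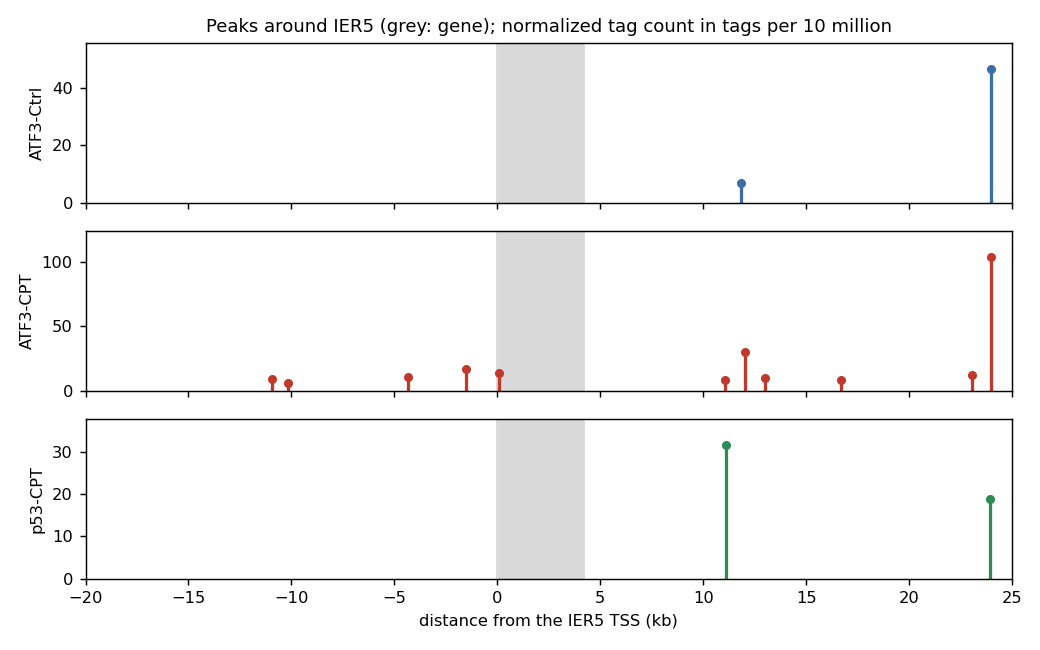
Normalized tag count (tags per 10000000 tags, a separate vertical scale for each library) of the ATF3-Ctrl, ATF3-CPT and p53-CPT peaks against distance from the IER5 TSS in kb, with the gene in grey. Both p53-CPT peaks (31.5 and 18.9) stand downstream of the gene at positions of ATF3-CPT peaks, which read 8.4 and 103.5.

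Other immediate early genes were covered in the same way. Of 20 such genes, 20 had an ATF3-CPT peak, 18 an ATF3-Ctrl peak, 2 an ATF3-KO peak, 5 a p53-CPT peak and 2 a p53-KO peak. As shares these were 100%, 90%, 10%, 25% and 10%, against 81%, 65.2%, 11.4%, 21.8% and 17.4% of all genes. The regions of ATF3, NR4A1 and MCL1, of 75444, 56676 and 38844 bp, were longer than any of the 8. The highest ATF3-CPT normalized tag counts were at ATF3 itself (278.8), FOSB (191.5) and TRIB1 (121.6). The genes with a p53-CPT peak were ATF3 (375.4), BTG2 (104.1), CCN1 (82), FOSL1 (41) and JUNB (31.5), of which ATF3 and CCN1 also had a p53-KO peak.

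Of the paralogs EGR4, IER5L, ZFP36L1 and ZFP36L2, 3 of 4 had an ATF3-CPT peak, at 5.2, 5.2 and 32.3 in that order, 1 had an ATF3-Ctrl peak, and none had a p53 peak. Of 7 partners of SRF and EGR proteins, 7 had an ATF3-CPT peak and 6 an ATF3-Ctrl peak (100% and 85.7%, against 81% and 65.2% of all genes), in regions that ran up to 246439 bp and so were far longer than the 21350 to 30238 bp of the 8 genes. The highest were at MRTFA (122.9), ELK3 (75) and ELK4 (19.4). MRTFA (44.2) and ELK3 (22.1) had p53-CPT peaks, and MRTFA also had a p53-KO peak. By the highest peak in each of the 5 libraries, the genes closest to the median of the 8 were PCGF1, UFC1, FOXA1, PRR36 and EFNB3, each at 20.1 to 20.7 in ATF3-CPT, 7.7 to 8.5 in ATF3-Ctrl and with no peak in the other 3 lists.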

How the data were processed

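The authors aligned reads to hg19 with BWA 0.6.1 and called peaks in each library with HOMER 4.1, with header settings of 0.001 for the false discovery rate, 4 for the fold against 10 kb around a peak and 1.00e-04 for its local p. As deposited, the signal of a peak (its normalized tag count) was scaled to 10000000 tags per library, and the deposited findPeaks score was not adjusted for depth. The focus ratio (a fraction of tags near the centre), the fold ratios over the local region and their p-values were computed by the authors and deposited, and were not compared here. Whole tags were recovered from the normalized tag counts.

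Genes came from GENCODE release 44 mapped to GRCh37, and the TSS was the 5′ end of the gene record. Peaks with 1 bp or more in common shared a site. All members' peaks are given, and further lists are given by counts, by their p53-CPT peaks and by the 3 highest ATF3-CPT values. Exact Poisson and conditional exact (Clopper-Pearson) 95% intervals were computed with scipy 1.17.1. With 1 library per group no test across samples was made. Motifs were searched on both strands of the reference sequence. The code was tested on simulated data. The genes and lists were chosen with earlier results of these data known.

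Alternatives covered the region, the TSS, the score, peaks of knockout cells, overlap, scaling and motif stringency. A check of 30-base words against the genome was added after the data had been seen.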

Additional observations from a re-analysis of the deposited data

How the results depend on the processing

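No paired analysis was possible because each group has 1 library. Adding 20 kb downstream of the genes raised the peaks to 28 in ATF3-Ctrl and 53 in ATF3-CPT and gave 2 p53-CPT peaks at 1 gene, IER5. In such regions 27.2% of all genes had a p53-CPT peak. A score of at least 20 left 2 ATF3-Ctrl peaks at 1 gene and 19 ATF3-CPT peaks at 6 genes. Of all genes, 28.4% and 56.5% had such a peak. Relative to the median of all shared sites, 1 site was at least 2-fold higher, the median ratio was 1.13, and the IER2 3′UTR site turned to 0.959. Per tag in peaks, 0 sites were 2-fold higher, 4 were higher and the median turned to 0.890. On that scale the IER2 sites 7138, 3007 and 3975 bp from the TSS turned to 0.905, 0.857 and 0.755, and the ZFP36 sites 16040 and 15572 bp upstream to 0.992 and 0.890.

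In the deposited windows, 5 of 13 ATF3-Ctrl peaks (38.5%, against 31% of all) held an AP-1 core. The ATF/CRE core, the CArG box and the p53 motif were in 1 each (7.69%, against 1.93%, 0.451% and 2.11%). A window of 200 bp gave 2 ATF3-Ctrl peaks with the ATF/CRE core (15.4%, against 2.04%). With 1 mismatch (at most 2 for the p53 motif), ATF3-Ctrl had 8 peaks with the AP-1 core (61.5%, against 60.5% of all). It had 2 with ATF/CRE (15.4%, against 12.7%) and 0 with the p53 motif (against 0.309%). ATF3-CPT had 19 with AP-1 (61.3%, against 70.7%), 10 with ATF/CRE (32.3%, against 14.2%) and 0 with the p53 motif (against 0.417%). A CArG box was in 8 of its peaks (25.8%, against 8.22%) and either core of ATF3 in 24 (77.4%, against 77.2%). Leaving out the peaks in repeated sequence, an alternative chosen after seeing the data, left 3, 0 and 0 ATF3-Ctrl peaks with AP-1, CArG and p53 matches and 1 ATF3-CPT peak with a p53 match. Once p53-CPT peaks also listed in p53-KO were removed, the nearest lay at 767 kb for EGR1, 483 kb for EGR2, 306 kb for EGR3, 361 kb for IER2 and 253 kb for SRF. With a score of at least 10 it lay at 255 kb for EGR2, 95.8 kb for SRF and 729 kb for ZFP36. In 88 other instances a count or median stayed within 1.5 times of its value in the report, but 33 of these were counts of 0 that stayed at 0 and say little. Depth limits the p53 lists, and no value here has a replicate.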

Other observations

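Past the ends of the genes, within 20 kb, 22 further ATF3-CPT peaks and 15 ATF3-Ctrl peaks were listed, at each gene except IER3 for ATF3-CPT. The strongest ATF3 peak near ZFP36 was among them, 145 bp past the gene end, with a normalized tag count of 95.1 (95% exact Poisson interval 80.4 to 112) after CPT and 37.1 (27.3 to 49.2) before it. A second peak 2860 bp past the end had 64.7 (52.6 to 78.7) after CPT and 31.7 (22.7 to 43.0) before it, so both were above the upstream ZFP36 peaks in each library. At EGR3, a peak 1891 bp past the end had 28.5 (20.7 to 38.2) after CPT and no ATF3-Ctrl counterpart. Past the end of EGR2, 2 peaks in the neighboring gene ADO, in its 5′UTR and coding sequence 7264 and 6875 bp from EGR2, were listed in both libraries, at 9.1 and 10.4 after CPT and 12.4 and 15.4 before. The counts are descriptions of 1 library each, and the peaks were singled out after their values had been seen. The share of all genes with an ATF3 peak in such a window past the end was not computed.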
